A study of Mus musculus with 15 samples.

Results

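Cd69, S1pr1, Cxcr4, Itga4, Itgb1, Cd44 and Selplg are 7 genes whose proteins hold blood stem and progenitor cells in the marrow or let them leave it. They were taken by name from 45232 gene IDs, and all 7 were among the 17834 genes with enough counts to be tested. The genes were chosen with earlier results of these data in view. Which values chose them is not recorded, and it was assumed that Cd69 was chosen by its fall in combined treatment against vehicle and S1pr1 by its fall in AG221 against vehicle, which those results held. These 2 contrasts are therefore described without a test for every member, and for Cd69 and S1pr1 no test is given wherever the libraries that chose them take part.

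RNA was sequenced from LSK cells, the lineage-negative, Sca-1-positive, c-Kit-positive marrow cells among which stem cells and early progenitors are found. Donor cells on the C57BL/6 background carried Jak2 V617F and Idh2 R140Q, both induced by Mx1-Cre, which polyI:polyC switches on in blood cells and in other tissues. They were transplanted together with WT competitor cells into lethally irradiated CD45.1 hosts, and CD45.2+ LSK cells were sorted. The recipients were given vehicle, AG221 (an inhibitor of mutant IDH2, 40 mg/kg), ruxolitinib (a JAK1/2 inhibitor, 60 mg/kg) or both drugs by gavage. Gavage lasted 21 to 28 days, with the last dose about 1.5 hours before the mice were sacrificed. The fifth group was WT LSK cells that carried neither mutation, and the 4 groups of recipients share both mutations. No gavage is recorded for WT, and the study's methods do not say whether the WT cells came from transplanted mice. WT and vehicle therefore need not differ in the mutations alone. Each of the 5 groups had 3 libraries (n = 3 throughout), and the study's methods name adult mice of both sexes for its experiments as a whole, with no age for each group. Whether each library stands for 1 mouse or a pool is not stated, so the p-values measure only the spread between these libraries, which may be technical.

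CD69 is a lectin-like membrane protein that appears on activated leukocytes. It binds the sphingosine-1-phosphate (S1P) receptor S1PR1 in the same membrane and removes it from the surface, and S1PR1 senses the S1P that is rich in blood and draws cells out of tissue. Retention in the marrow depends on the chemokine receptor CXCR4, which answers stromal CXCL12, on the integrin VLA-4, formed by the ITGA4 and ITGB1 chains and bound by VCAM-1, and on CD44 and the selectin ligand PSGL-1 (the product of Selplg), which bind hyaluronan and selectins.

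The libraries held 18836625 to 32174287 counts in genes (median 25545779), and levels are given as CPM, counts scaled to the library size after TMM normalization, on which scale 3 counts correspond to 0.0957 to 0.157. Every member was far above that level, with 204 to 14923 counts in a library. Cd3e stayed at 1.24 CPM or less. Several features of the whole series moved with the groups. The 11 LSK markers summed to 4267 to 4695 CPM in WT, 2195 to 3643 in vehicle, 2347 to 2591 in AG221, 2762 to 3307 in ruxolitinib and 2719 to 3576 in combined libraries. Single markers of this list differed in direction. Hlf held 219.3 to 318.8 CPM in WT and 24.5 to 103.4 in vehicle, but Slamf1 held 11.5 to 16.9 in WT and 22.1 to 53.7 in vehicle. Ly6a, the gene of Sca-1, held 59.9 to 81.0 CPM in WT and 109.0 to 147.8 with AG221. The 9 neutrophil markers, of which Elane, Mpo and Prtn3 are also made by progenitors, summed to 3270 to 3631 CPM in WT, 7312 to 12106 in vehicle, 16055 to 18835 in AG221, 11507 to 18379 in ruxolitinib and 3969 to 7047 in combined libraries. Mast and basophil markers (6 genes) summed to 75.2 to 152.1 CPM in WT and 542.4 to 1004.9 in vehicle libraries. Their sums were 513.9 to 666.8 in AG221, 287.7 to 313.8 in ruxolitinib and 259.8 to 424.5 in combined libraries. Plasma cell markers (7 genes) summed to 600.2 to 1301.4 CPM in WT and to 35.1 to 218.1 CPM in the other libraries. The part of these cell types in the member levels was not tested. The 12 immediate early genes summed to 6935 to 15285 CPM in vehicle, 4043 to 5771 in AG221, 4392 to 9404 in ruxolitinib, 741.2 to 1330 in combined and 809.8 to 1125 in WT libraries. Y-linked genes summed to at most 0.134 CPM in WT and to at least 284.7 CPM in the other libraries, so the sex of the cells differed between WT and the rest. The names of all vehicle, AG221 and ruxolitinib libraries start with the letter A, those of all combined and WT libraries with the letter B, and what the letter stands for is not given in the sources used here. A difference between an A group and a B group cannot be told apart from the letter. AG221 and ruxolitinib against vehicle compare A with A, and combined against WT compares B with B.

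Cd69 (ENSMUSG00000030156, GRCm38 chr6:129267325-129275436, minus strand) had the widest range of the 7 genes, 20.7-fold between the lowest and the highest library. In the WT libraries its level was 30.4, 27.2 and 29.4 CPM. The vehicle libraries held 561.1, 451.8 and 403.1 CPM. With AG221 the levels were 525.7, 250.6 and 355.5 CPM. Vehicle and AG221 libraries overlapped, and both groups lay far above WT. With ruxolitinib the levels were 256.2, 155.9 and 194.2 CPM, all below the lowest vehicle library. With combined treatment they were 42.2, 30.5 and 42.9 CPM, just above the WT libraries and without overlap with them.

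**Figure D1:**
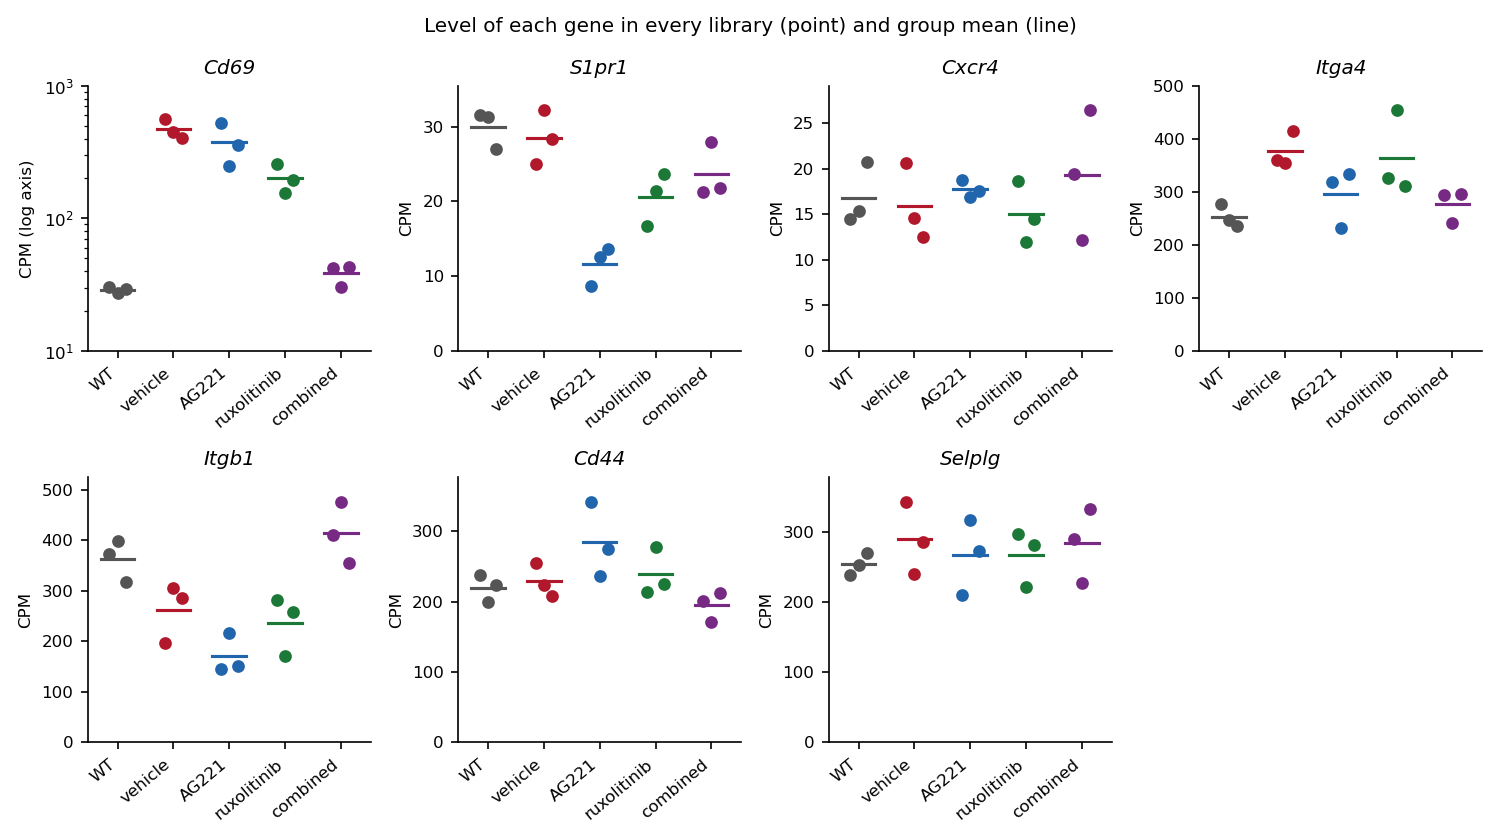
Level of each of the 7 genes in CPM (vertical axis; logarithmic for Cd69, from 0 for the others) in the 5 groups (horizontal axis); points are libraries and lines are group means. Cd69 sits between 155.9 and 561.1 CPM in the vehicle, AG221 and ruxolitinib libraries and between 27.2 and 42.9 CPM in the combined and WT libraries, and S1pr1 is lowest in the AG221 libraries.

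Against WT, the log2 fold change of Cd69 was 4.03 (SE 0.281) in vehicle, without a test. AG221 libraries were 3.70 higher on the log2 scale (SE 0.277, adjusted p = 4.15e-06), which is 13.0-fold, and ruxolitinib libraries 2.80 higher (SE 0.266, adjusted p = 5.04e-05), which is 6.97-fold. In these 2 comparisons with WT, 22.2% and 16.1% of all tested genes were called higher at an adjusted p under 0.05, and 28.5% and 16.2% lower. Combined treatment against vehicle, the contrast on which Cd69 was assumed to be chosen, gave -3.62 (SE 0.276). Ruxolitinib against vehicle gave -1.22 (SE 0.252), AG221 against vehicle -0.32 (SE 0.248) and combined treatment against WT 0.41 (SE 0.251), all described without a test. The levels ordered the groups as vehicle, AG221, ruxolitinib, combined and WT, and of these neighbours only vehicle and AG221, and AG221 and ruxolitinib, overlapped. The separation between combined and WT rested on 30.5 CPM against 30.4 CPM in the nearest libraries.

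The fall of Cd69 with combined treatment was larger on the log2 scale than the falls with each drug alone added together. That excess, the combined change minus the AG221 change minus the ruxolitinib change, each against vehicle, was -2.07 (SE 0.355), again without a test and across the A and B letters. Cd69 marks activated T and NK cells in other tissues. The 11 T and NK cell markers summed to 203.9 to 267.3 CPM in WT, 426.6 to 486.8 in vehicle, 622.2 to 783.9 with AG221, 444.9 to 552.6 with ruxolitinib and 415.6 to 431.1 with combined treatment. Nkg7 alone held 150.2 to 215.8 CPM in WT and 595.5 to 759.7 with AG221, so it made up most of each sum. Other markers of the list did not share its rise. Lck held 32.5 to 41.3 CPM in WT and 18.4 to 19.9 with AG221, and Cd4 3.29 to 3.63 and 0.182 to 0.469. The part of these markers in the result was not tested. The defining T cell genes Cd3e, Cd3d and Cd3g were at 0 to 1.65 CPM in every library. The sums of the immediate early genes were, like Cd69, high in vehicle, AG221 and ruxolitinib and low in combined and WT libraries. Among the first 3 of these, the ruxolitinib sums overlapped those of vehicle and of AG221, with a median of 8211 CPM in vehicle, 5039 in AG221 and 8330 in ruxolitinib. A sum does not show the order of each gene in it, and the part of these genes in the result was not tested.

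S1pr1 (ENSMUSG00000045092, GRCm38 chr3:115710433-115715072, minus strand) went the other way from Cd69 only in part. Its level was 31.6, 31.3 and 27.0 CPM in WT and 24.96, 32.23 and 28.4 CPM in vehicle libraries, which overlapped. With AG221 it was 8.72, 12.6 and 13.7 CPM, below every other library of the series. Ruxolitinib libraries held 16.7, 21.3 and 23.7 CPM. Combined libraries held 21.2, 27.9 and 21.8 CPM, within the span of the ruxolitinib and vehicle groups. WT, vehicle, combined and ruxolitinib thus formed an order in which each neighbour overlapped the next, and AG221 stood apart below ruxolitinib.

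AG221 against vehicle, the contrast on which S1pr1 was assumed to be chosen, gave a log2 fold change of -1.29 (SE 0.207). AG221 against WT gave -1.36 (SE 0.207), and combined treatment against AG221 gave 1.02 (SE 0.206), all without a test. Of the comparisons that could be tested, ruxolitinib against WT gave -0.54 (SE 0.203, 95% interval -0.98 to -0.10, adjusted p = 0.0559). Combined treatment gave -0.34 against WT (95% interval -0.78 to 0.10, adjusted p = 0.308) and 0.20 against ruxolitinib (95% interval -0.24 to 0.64, adjusted p = 0.597). None of these passed the threshold. The departure of combined treatment from the added changes of both drugs was 1.49 for S1pr1 (SE 0.289, no test), opposite in sign to that of Cd69. The summed neutrophil markers had their highest median in AG221 (17355 CPM), where S1pr1 was lowest, but overlapped those of ruxolitinib (median 13513 CPM), and their part in the result was not tested. In bulk samples, fewer cells that express a gene and less RNA per cell cannot be told apart.

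Itgb1 (ENSMUSG00000025809, GRCm38 chr8:128685654-128733200, plus strand), the shared beta chain of VLA-4 and of many other integrins, had its highest levels with combined treatment and in WT. The WT libraries held 373.3, 398.7 and 318.4 CPM and the combined libraries 411.1, 476.9 and 354.1 CPM. Vehicle libraries held 195.7, 306.4 and 286.2 CPM, AG221 libraries 145.5, 216.3 and 151.5 CPM, and ruxolitinib libraries 282.1, 171.6 and 257.7 CPM. Every B library was above every A library, and within each letter the groups overlapped their neighbours.

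Itgb1 was lower than in WT with AG221 (log2 fold change -1.09, SE 0.225, adjusted p = 0.00216) and with ruxolitinib (-0.62, SE 0.223, adjusted p = 0.0487). In vehicle against WT the value was -0.47 (SE 0.223, adjusted p = 0.116). Combined treatment was higher than AG221 by 1.28 (SE 0.226, adjusted p = 0.00283) and higher than ruxolitinib by 0.80 (SE 0.224, adjusted p = 0.0309), and against WT the difference was 0.19 (95% interval -0.29 to 0.67, adjusted p = 0.625). Against vehicle, AG221 gave -0.62 (SE 0.223) and combined treatment 0.66 (SE 0.223), both without a test, and ruxolitinib gave -0.15 (adjusted p = 1). The departure from the added drug changes was 1.42 (SE 0.316), without a test, since it is built from these contrasts and was chosen after the levels had been seen. The call against WT with AG221 and the call of combined treatment over AG221 held in 12 of 12 other settings or left-out libraries. The call of ruxolitinib against WT was lost in 8 of 12, with an adjusted p of 0.219 without ruxolitinib library A16. The call of combined treatment over ruxolitinib was lost in 5 of 12, among them without ruxolitinib libraries A16 (0.155) and A17 (0.073) and without combined libraries B24 (0.0867) and B25 (0.124).

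Itga4 (ENSMUSG00000027009, GRCm38 chr2:79255426-79333123, plus strand), the alpha chain of VLA-4, was highest in vehicle and ruxolitinib libraries. It stood at 278.5, 247.8 and 235.2 CPM in WT, at 361.2, 354.9 and 415.7 CPM in vehicle, at 326.4, 455.4 and 311.9 CPM with ruxolitinib, at 319.2, 232.4 and 335.2 CPM with AG221 and at 295.3, 242.0 and 296.3 CPM with combined treatment. The vehicle and ruxolitinib libraries were all above the WT and combined libraries, and AG221 spanned the gap. Vehicle was higher than WT by 0.57 on the log2 scale (SE 0.173, adjusted p = 0.0245) and ruxolitinib by 0.52 (SE 0.173, adjusted p = 0.0352). In vehicle against WT, 15.4% of all tested genes were called higher and 17.9% lower, and Itga4 was the 1 of 5 tested members called. AG221 against WT gave 0.22 (adjusted p = 0.296), combined treatment against WT 0.13 (adjusted p = 0.665) and combined treatment against ruxolitinib -0.39 (adjusted p = 0.171). Against vehicle, combined treatment gave -0.44 (SE 0.173) and AG221 -0.35 (SE 0.172), without a test, and ruxolitinib -0.05 (adjusted p = 1). The call of vehicle against WT was lost in 5 of 12 other settings or left-out libraries, among them without vehicle library A4 (adjusted p = 0.0687) and without WT libraries B30 (0.0851) and B31 (0.0586). The call of ruxolitinib against WT was lost in 6 of 12, among them without ruxolitinib library A16 (adjusted p = 0.121) and without WT libraries B30 (0.11) and B31 (0.0838). Of the exon bases of Itga4, 8.04% overlap Cerkl on the other strand, and the strand setting of the counting is not given in the sources used here, while Cerkl itself held 4.83 to 10.1 CPM.

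**Figure D2:**
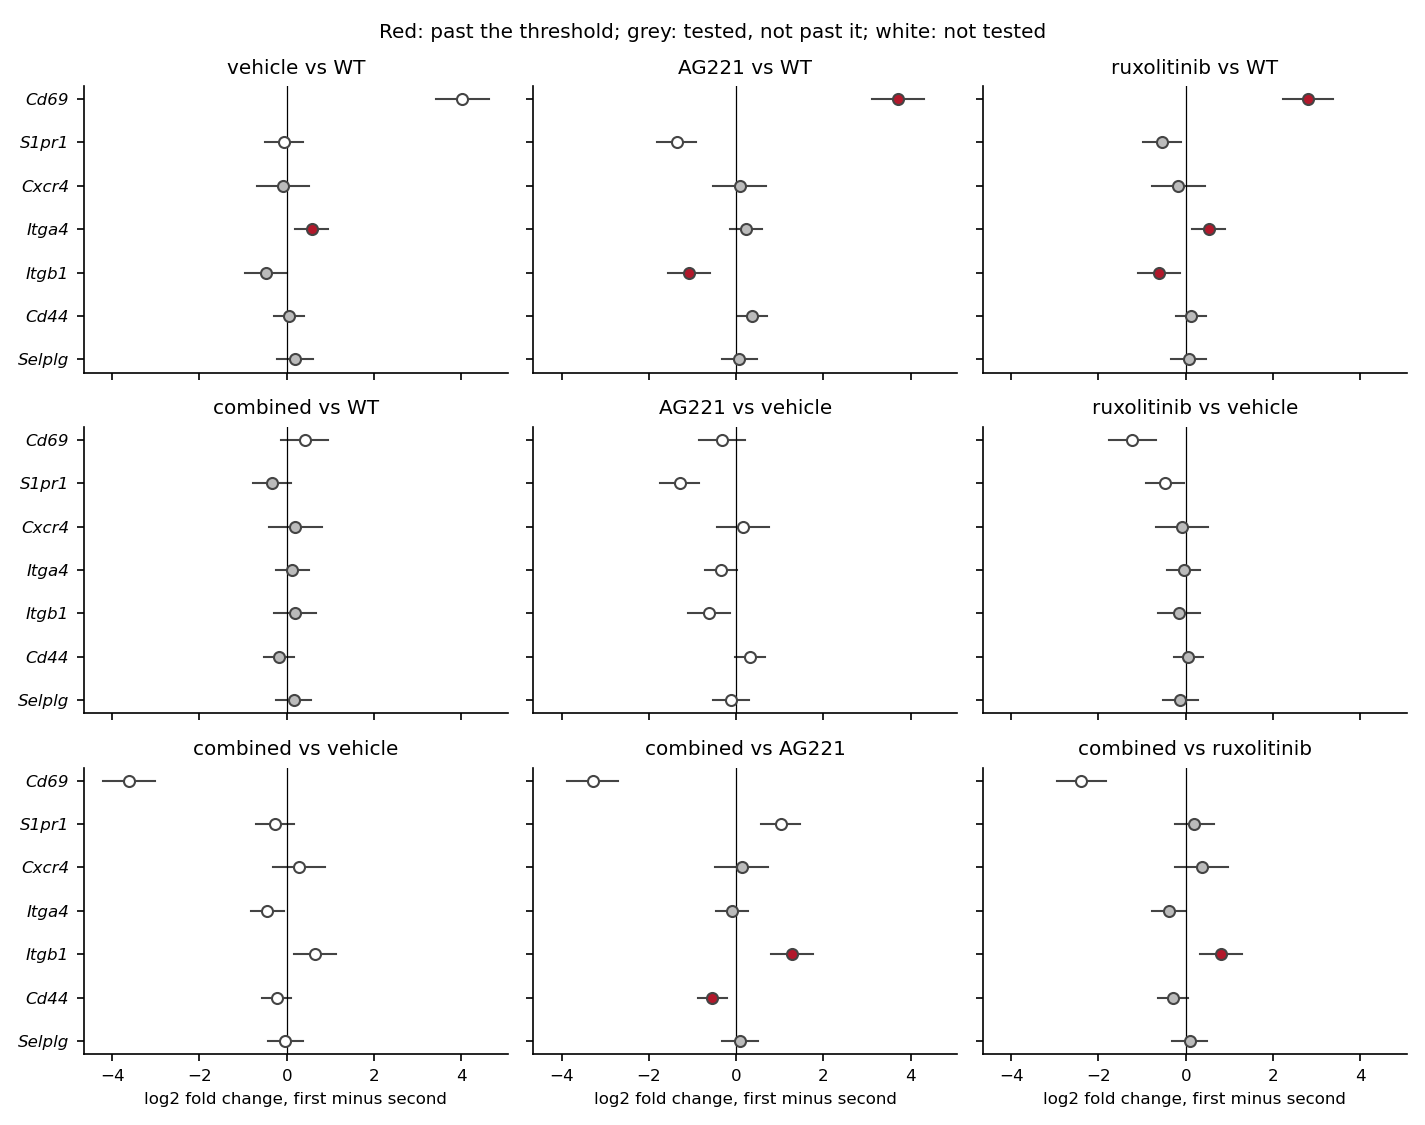
Log2 fold change (horizontal axis, first group minus second) of the 7 genes in the 9 comparisons, with 95% intervals of the quasi-likelihood fit as bars. White points have bars too, and these are not to be read as a test, since such values may have chosen the genes. Red points passed an adjusted p of 0.05, grey points were tested and did not, and white points carry no test; Itgb1 is red at -1.09 in AG221 against WT and at 1.28 in combined against AG221.

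Itga4 and Itgb1 thus differed from WT in opposite directions where they were called with ruxolitinib. The ratio of Itga4 to Itgb1 counts within a library, which does not depend on the scaling of the library, was 0.621 to 0.746 in WT and 0.508 to 0.837 with combined treatment. It was 1.16 to 1.85 in vehicle, 1.07 to 2.21 with AG221 and 1.16 to 2.65 with ruxolitinib. No A library overlapped any B library, and within each letter the groups overlapped. The ratio was computed after the levels had been seen, so it is given without a test, and the counts are not corrected for transcript length.

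**Figure D3:**
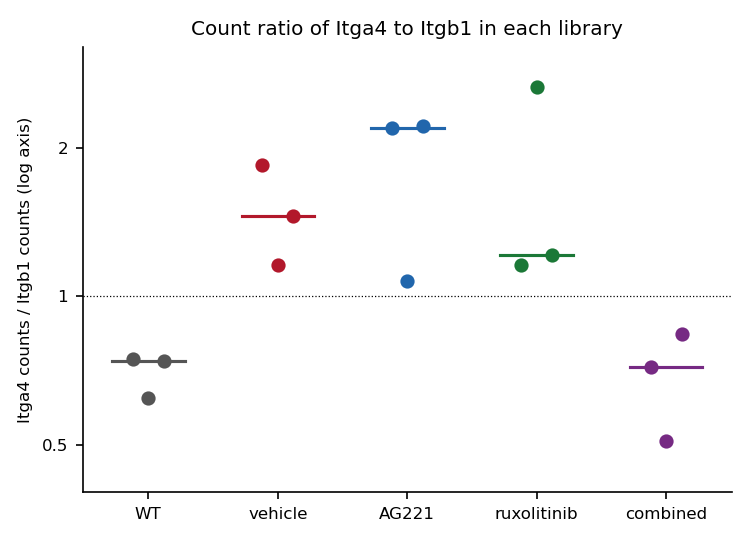
Ratio of Itga4 counts to Itgb1 counts in each library (points; vertical axis logarithmic) by group (horizontal axis), with the group median as a line and a dotted line at 1. All vehicle, AG221 and ruxolitinib libraries lie above 1 (1.07 to 2.65) and all WT and combined libraries below it (0.508 to 0.837).

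The 250 bases before the RefSeq start of each VLA-4 gene are shown because its chains differed in direction (RefSeq, GRCm38.p6). Capitals mark the letters CACCC, which KLF factors bind, or TGTGGT, which RUNX factors bind, on either strand, and in Itga4 a RUNX match and a KLF match overlap in a single capital run.
Itga4, chr2:79255176-79255425, plus strand: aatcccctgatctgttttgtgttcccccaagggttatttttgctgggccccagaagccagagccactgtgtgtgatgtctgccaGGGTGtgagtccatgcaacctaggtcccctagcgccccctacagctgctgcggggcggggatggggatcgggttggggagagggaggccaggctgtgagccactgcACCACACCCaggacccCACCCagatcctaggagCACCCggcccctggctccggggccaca
Itgb1, chr8:128685404-128685653, plus strand: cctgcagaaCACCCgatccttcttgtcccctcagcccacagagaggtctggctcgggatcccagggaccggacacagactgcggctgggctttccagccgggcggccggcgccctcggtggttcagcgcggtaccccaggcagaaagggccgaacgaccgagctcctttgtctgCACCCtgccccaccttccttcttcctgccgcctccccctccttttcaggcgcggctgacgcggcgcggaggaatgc
CACCC occurs in 52.0% of all 32851 promoter windows of this length and TGTGGT in 14.05%, and the matches are given as a description only. Itga4 holds CACCC 4 times and TGTGGT 1 time, and Itgb1 holds CACCC 2 times. The table held 4 of the 7 members. The AP-1 letters TGANTCA (6.75% of all windows), the CRE letters TGACGTCA (1.55%), the STAT letters TTCNNNGAA (7.02%) and the NF-kB motif (7.25%) were in none of the 4 windows. The EGR letters GCGNGGGCG (4.7%) and the TATA box TATAAA (12.4%) were found in the Cxcr4 window alone, and no searched letters were found in that of Cd44.

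Cd44 (ENSMUSG00000005087, GRCm38 chr2:102811141-102901665, minus strand), the hyaluronan receptor, varied less. Its levels were 199.1 to 237.7 CPM in WT, 208.4 to 255.2 CPM in vehicle and 213.5 to 277.3 CPM with ruxolitinib. AG221 libraries held 342.6, 237.0 and 274.6 CPM and combined libraries 200.8, 171.3 and 213.1 CPM, without overlap. Combined treatment was lower than AG221 by a log2 fold change of -0.55 (SE 0.157, adjusted p = 0.0185), where 18.9% of all tested genes were called higher and 14.3% lower. That call was lost in 4 of 12 other settings or left-out libraries, among them without AG221 library A8 (adjusted p = 0.0862) and without combined libraries B24 (0.0553) and B25 (0.0816). AG221 against WT gave 0.37 (adjusted p = 0.0628), and combined treatment against ruxolitinib -0.29 (adjusted p = 0.271). AG221 against vehicle gave 0.31 (SE 0.157) and combined treatment against vehicle -0.23 (SE 0.157), and the departure from the added drug changes was -0.60 (SE 0.222), all without a test. Of the 7 genes, Cd44 and Itgb1 had the strongest inverse relation over the 15 libraries (r = -0.90 of log2 CPM), a description in which the points share the 5 groups.

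Cxcr4 (ENSMUSG00000045382, GRCm38 chr1:128588199-128592293, minus strand) and Selplg (ENSMUSG00000048163, GRCm38 chr5:113818536-113832644, minus strand) passed the threshold in none of the comparisons tested. Cxcr4 held 14.4 to 20.7 CPM in WT, 12.5 to 20.6 in vehicle, 16.9 to 18.81 with AG221, 11.9 to 18.7 with ruxolitinib and 12.2 to 26.5 with combined treatment. Its highest and lowest tested log2 fold changes were 0.37 in combined treatment against ruxolitinib (95% interval -0.24 to 0.97, adjusted p = 0.46) and -0.17 in ruxolitinib against WT (95% interval -0.77 to 0.44, adjusted p = 0.662). Selplg held 238.9 to 270.7 CPM in WT, 240.6 to 343.4 in vehicle, 210.3 to 316.8 with AG221, 221.1 to 297.0 with ruxolitinib and 227.3 to 333.0 with combined treatment. For Selplg the highest and lowest were 0.19 in vehicle against WT (95% interval -0.21 to 0.60, adjusted p = 0.444) and -0.12 in ruxolitinib against vehicle (95% interval -0.53 to 0.28, adjusted p = 1). For each gene every group overlapped the next in the order of levels.

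Counted over the members, 2 of 7 were called higher and 1 of 7 lower in ruxolitinib against WT (16.1% and 16.2% of all tested genes), and 1 of 6 higher and 1 of 6 lower in AG221 against WT (22.2% and 28.5%). Combined treatment against WT called 0 of 6 tested members, where edgeR called 1.63% of all tested genes higher and 1.61% lower, and 4529 genes had an unadjusted p under 0.05. Combined treatment against ruxolitinib called 1 of 6 tested members, where 8.5% of all genes were called higher and 3.94% lower. Ruxolitinib against vehicle called 0 of 5 tested members, where 0% of all genes were called higher and 0.0168% lower. There edgeR found 813 genes at an unadjusted p under 0.05, and DESeq2 called 6 genes higher and 44 lower. The median log2 fold change of all tested genes was -0.25 in AG221 against WT, -0.14 in ruxolitinib against WT and 0.11 in combined treatment against AG221, and every call named above was farther from 0 than these medians.

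Between genes, levels were compared as CPM per kilobase of merged exon. In WT cells Itgb1 had the highest mean (89.1 ± 10.1 SD), followed by Selplg (59.5 ± 3.73), Cd44 (32.5 ± 2.88), Itga4 (18.2 ± 1.59), S1pr1 (9.83 ± 0.847), Cxcr4 (9.31 ± 1.88) and Cd69 (4.45 ± 0.254). In vehicle libraries Cd69 had the highest mean of the 7 on this scale, 72.5 ± 12.4, and its range of 61.9 to 86.2 overlapped those of Selplg (67.9 ± 12.05) and Itgb1 (64.4 ± 14.4). With combined treatment it was at 5.92 ± 1.07, again the lowest mean.

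Genes whose levels over the 15 libraries were most like a member were ranked by Pearson's r of log2 CPM, a description in which the points share the 5 groups. Those nearest to Cd69 were Gm43361 (0.99), Ccrl2 (0.98), Gm37780 (0.98), Ier3 (0.98) and Cxcl2 (0.98), and 124 of 17833 genes had an r over 0.9. Ccrl2 is an atypical chemoattractant receptor, Ier3 an immediate early gene and Cxcl2 a neutrophil-attracting chemokine. Those nearest to S1pr1 were Zfp397 (0.92), Ktn1 (0.92), Tnik (0.91), Gm15774 (0.90) and Trpv4 (0.90), and 3 genes had an r over 0.9. For the others the nearest gene was Fbxo9 for Itgb1 (0.99), Trit1 for Cd44 (0.92), Dpy19l4 for Itga4 (0.92), Cotl1 for Selplg (0.91) and Ldlrad4 for Cxcr4 (0.80). Itgb1 shared its pattern with 1130 genes at an r over 0.9, while Cxcr4 had none.

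The genes around the members were taken from 7 lists written from general knowledge (the S1P axis, chemokine receptors and ligand, regulators that end G protein signals, other integrin subunits, integrin activation, selectins and their ligands, and other niche adhesion genes), 92 genes of which 90 were tested. Earlier results of these data were known when the lists were written. The adjusted p of a list gene is therefore not independent evidence for that gene or for the pattern of a member. This holds above all in combined treatment and in AG221 against vehicle, where no test is given for the members. In vehicle against WT, 22 were called higher and 13 lower, with a median log2 fold change of 0.04 against -0.09 over all tested genes. Over all tested genes, 15.4% were called higher and 17.9% lower there. AG221 against WT called 24 higher and 23 lower (22.2% and 28.5% of all tested genes), ruxolitinib against WT 22 and 14 (16.1% and 16.2%), and combined treatment against WT 8 and 1 (1.63% and 1.61%). Combined treatment called 9 higher and 4 lower against vehicle, where 8.28% and 4.21% of all tested genes were called. Against vehicle, AG221 called 0 higher and 1 lower (0.471% and 0.516% of all tested genes), and ruxolitinib called none by edgeR. Combined treatment called 19 higher and 12 lower against AG221 and 9 higher and 6 lower against ruxolitinib, beside 18.9% and 14.3%, and 8.5% and 3.94%, of all tested genes. The count against vehicle with AG221 depended on the setting, from 0 without vehicle library A1 or A4 or AG221 library A8 or A10 to 21 without AG221 library A9.

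Of the 14 tested S1P axis genes, 4 were called higher and 2 lower in vehicle against WT, to be read, as for the lists that follow, against 15.4% and 17.9% of all tested genes. Klf2, a transcription factor that switches on S1pr1 in lymphocytes, had 0.536 to 1.35 CPM in WT, 9.12 to 17.8 in vehicle, 9.49 to 11.7 with AG221, 4.40 to 18.1 with ruxolitinib and 0.678 to 1.21 with combined treatment. It was higher in vehicle than in WT by 4.17 on the log2 scale (SE 0.542, adjusted p = 0.000474) and lower with combined treatment than in vehicle by a log2 fold change of -3.93 (SE 0.538, adjusted p = 0.00125). Its group means fell in the order seen for Cd69 (vehicle, AG221, ruxolitinib, combined, WT), which is not that of S1pr1. The vehicle, AG221 and ruxolitinib ranges of Klf2 overlapped, as did those of combined and WT. Only the A libraries stood apart from the B libraries. Mfsd2b, an S1P exporter of red cells and platelets, was higher than WT in vehicle (2.12, SE 0.295, adjusted p = 0.000741). It was also higher than WT with AG221 (1.83, adjusted p = 0.000518), ruxolitinib (1.80, adjusted p = 0.00198) and combined treatment (1.81, adjusted p = 0.00804). Megakaryocyte markers summed to 249.2 to 337.8 CPM in WT and to 351.9 to 934.6 CPM in the other libraries, and their part in the Mfsd2b result was not tested. Spns2, the S1P exporter of endothelium, was lower in vehicle than in WT (-0.74, SE 0.204, adjusted p = 0.017) and higher with combined treatment than in vehicle (1.06, SE 0.205, adjusted p = 0.00538).

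**Figure D4:**
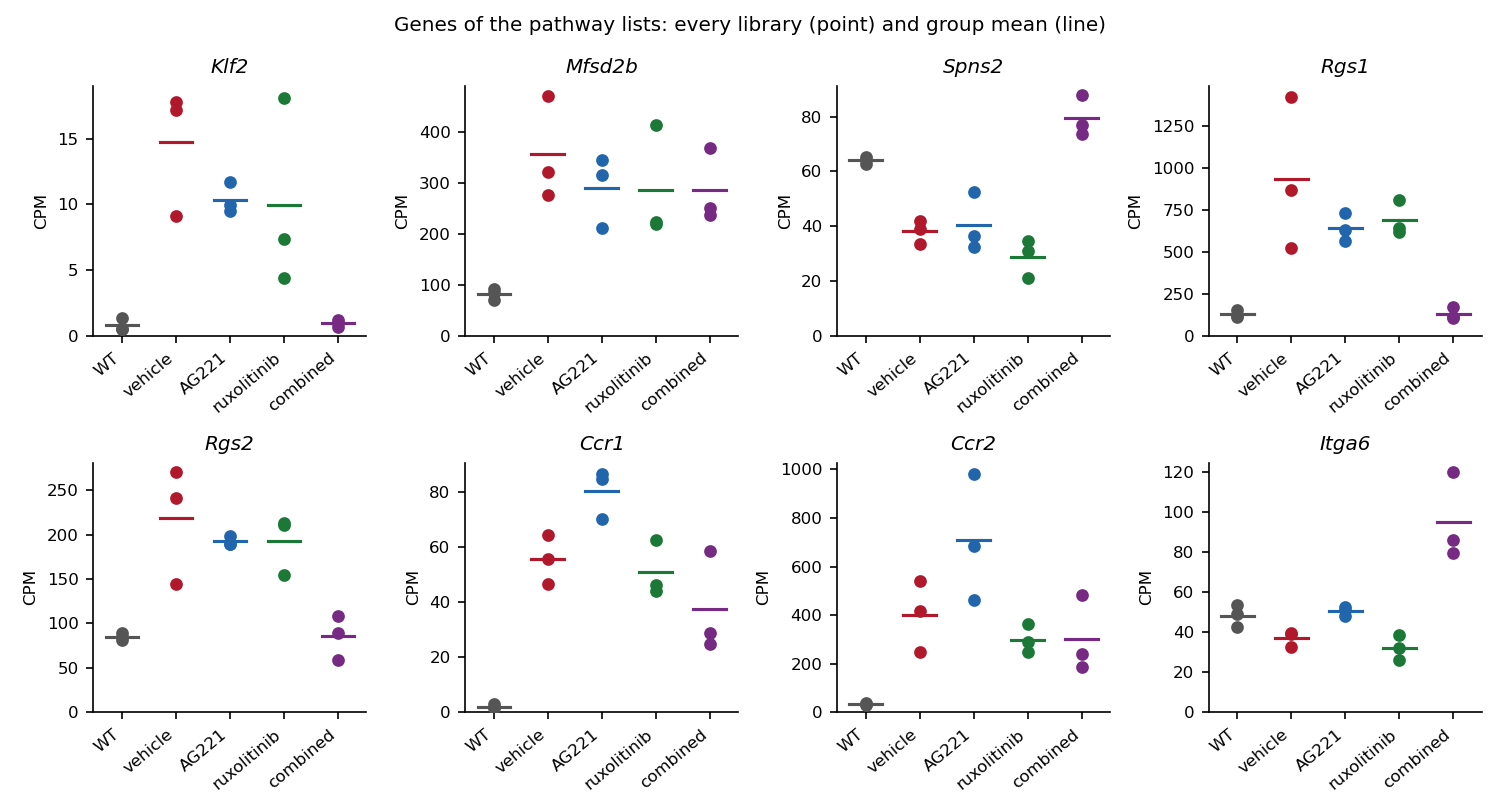
Level (CPM, vertical axis from 0) of 8 genes of the S1P, G protein, chemokine receptor and integrin lists in the 5 groups (horizontal axis); points are libraries and lines are group means. Klf2, Rgs1 and Rgs2 are high in vehicle, AG221 and ruxolitinib and low in WT and combined libraries, while Mfsd2b, Ccr1 and Ccr2 are above WT in all 4 mutant groups.

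Of the 10 G protein signal terminators, Rgs1 and Rgs2 were called in vehicle against WT and also in combined treatment against vehicle, which shares the vehicle libraries. Rgs1, which shortens signals of CXCR4 and of other chemokine receptors, held 110.5 to 150.2 CPM in WT, 520.6 to 1420 in vehicle and 108.1 to 169.2 with combined treatment. Its log2 fold change was 2.86 in vehicle against WT (SE 0.309, adjusted p = 0.00011) and -2.84 in combined treatment against vehicle (SE 0.309, adjusted p = 0.00022). Rgs2 gave 1.36 (SE 0.24, adjusted p = 0.00309) and -1.36 (SE 0.24, adjusted p = 0.00378) in the same comparisons. Rgs1 and Rgs2 were also higher than WT with AG221, by 2.31 (adjusted p = 0.000199) and 1.18 (adjusted p = 0.00194). With ruxolitinib they were higher than WT by 2.42 (adjusted p = 0.000461) and 1.18 (adjusted p = 0.00524).

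Among the 11 chemokine receptor and ligand genes, 4 were called higher and 5 lower in vehicle against WT. Of those called lower, Ackr3 had the smallest adjusted p (-6.08, SE 1.18, adjusted p = 0.00467). It was near the floor, with 0.671 to 1.65 CPM in WT and 0 to 0.0319 in vehicle libraries. The inflammatory receptors Ccr1 (4.76, SE 0.358, adjusted p = 4.16e-06) and Ccr2 (3.59, SE 0.398, adjusted p = 0.000143), which guide monocytes, were higher in vehicle than in WT. With combined treatment they were still higher than in WT, by 4.19 (SE 0.35, adjusted p = 2.58e-05) and 3.19 (SE 0.391, adjusted p = 0.000999). The monocyte and dendritic cell markers summed to 405.1 to 466.7 CPM in WT, 464.6 to 739.5 in vehicle, 1174 to 1426 with AG221, 655.6 to 1248.6 with ruxolitinib and 403.0 to 554.7 with combined treatment.

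Of the 12 other integrin subunits, 4 were called higher and 2 lower in vehicle against WT. Itga2b, the platelet alpha chain, rose by 1.92 (SE 0.284, adjusted p = 0.00107) and Itgb2, the leukocyte beta chain, by 0.87 (SE 0.183, adjusted p = 0.00627), while Itgav fell (-1.20, SE 0.251, adjusted p = 0.00609). Combined treatment against vehicle called Itga6, a laminin receptor chain that pairs with Itgb1 (1.36, SE 0.187, adjusted p = 0.00125), and Itgav (1.51, SE 0.253, adjusted p = 0.00314), both higher. Itga6 levels of 79.5 to 119.9 CPM with combined treatment were above those of every other library, WT included (42.3 to 53.3 CPM). Itgb3 was the 1 list gene called in AG221 against vehicle (-1.85, SE 0.404, adjusted p = 0.0489).

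Of the 15 tested genes of integrin activation, 4 were called higher and none lower in vehicle against WT, with the kindlin Fermt3 at 0.70 (SE 0.144, adjusted p = 0.00588). In combined treatment against vehicle the GTPases Rac1 (2.69, SE 0.481, adjusted p = 0.00381) and Rap1b (2.22, SE 0.439, adjusted p = 0.00571) were higher and the Rap1 effector Apbb1ip was lower (-0.64, SE 0.145, adjusted p = 0.0117). The 3 combined libraries differed widely in Rap1b, from 172.6 to 567.8 CPM, and in Rac1, from 37.3 to 143.2 CPM. Both ranges overlapped those of WT, 97.8 to 202.9 CPM for Rap1b and 25.2 to 56.7 CPM for Rac1. Selectins and their ligands gave 1 call higher, Podxl (2.73, SE 0.555, adjusted p = 0.00548), and 1 lower, Glg1 (-1.10, SE 0.372, adjusted p = 0.0376), of 11 in vehicle against WT. The other niche adhesion genes gave 3 calls in each direction of 17, with the tetraspanin Cd9 at 0.92 (SE 0.162, adjusted p = 0.00316) and the junction protein Jam3 at -1.72 (SE 0.397, adjusted p = 0.00902), and in combined treatment against vehicle none of the 17 was called by edgeR.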

How the data were processed

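RNA sequencing counts of LSK cells in 15 libraries were analysed, 3 in each of 5 groups taken from the sample labels. The 7 members and the gene lists were chosen with earlier results of these data known. The authors deposited raw counts of reads per Ensembl gene, made from paired-end reads with STAR 2.5.1a on mm10, per the labels and the study's methods. The deposited table of normalized counts, a signal from DESeq2 1.6.3, was not used. The Ensembl release and strand setting are not given in the sources used here.

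Symbols and coordinates came from GENCODE mouse release M21 (GRCm38), which named 44585 of 45232 IDs. Of 37904 genes with a count, 17834 passed filterByExpr by group. TMM scaling and a quasi-likelihood fit of all 15 libraries with 5 groups and no covariate were used (edgeR 4.0.16, R 4.3.3), with Benjamini-Hochberg adjustment over all tested genes at 0.05. Log2 CPM used a prior count of 2. Standard errors came from the F statistic. The script was tested on simulated data. Counts of 18836625 to 32174287 per library set the precision, and floors of 3 counts cover counting error only.

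Named genes were the 7 members, the 5 genes most like Cd69 and S1pr1, and the nearest gene of each other member. List genes were taken from those called whose groups did not overlap, up to 3 per list and comparison with the smallest adjusted p. Not all of these list genes are printed. Single marker genes were named to show differences within a list. Alternatives were DESeq2 1.42.0, RLE and upper quartile scaling, other filters, a fit restricted to the compared groups, and each library left out. The departure from added drug changes, the ratio of Itga4 to Itgb1 and the levels of Cerkl were added after the data were seen.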

Additional observations from a re-analysis of the deposited data

How the results depend on the processing

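Cd69 in combined treatment against vehicle (-3.73 to -3.48) and S1pr1 in AG221 against vehicle (-1.39 to -1.08) kept their direction in all 12 settings, and the calls of Cd69 and Itgb1 in AG221 against WT, Cd69 in ruxolitinib against WT and Itgb1 in combined treatment against AG221 held in all 12. Values near 0 turned sign without being called. Under upper quartile scaling, combined treatment against WT gave -0.067 for Itga4 and -0.018 for Itgb1. With a library left out, ruxolitinib against vehicle ranged from -0.24 to 0.035 for Itga4, from -0.32 to 0.038 for Itgb1 and from -0.24 to 0.015 for Selplg, and Cxcr4 in ruxolitinib against WT from -0.33 to 0.026. S1pr1 in ruxolitinib against WT passed under DESeq2 (adjusted p = 0.0478), upper quartile scaling (0.0414), the stricter filter (0.0295) and the fit of only the groups compared (0.0497). Itgb1 in vehicle against WT passed under upper quartile scaling (0.0389), and Cd44 in AG221 against WT under DESeq2 (0.0424), under RLE scaling (0.0421) and without AG221 library A9 (0.0149). Of the 90 list genes, AG221 against vehicle called 14 under DESeq2, 5 under upper quartile scaling, 4 without the filter, 5 with at least 10 counts in every library, 0 with only the groups compared and 0 to 21 with a library left out. Combined treatment against WT called 18 under DESeq2, 19 with only the groups compared and 4 to 10 with a library left out. Leaving out a library gave 19 to 36 list genes in vehicle against WT, 17 to 29 in ruxolitinib against WT and 16 to 45 in combined treatment against AG221. The causes were not tested. Over all genes, upper quartile scaling changed vehicle against WT from 2747 higher and 3190 lower to 1306 and 3586, AG221 against vehicle from 84 and 92 to 571 and 167, and combined treatment against AG221 from 3371 and 2546 to 2671 and 4359. It changed ruxolitinib against WT from 2867 and 2892 to 1711 and 3320 and combined treatment against WT from 291 and 288 to 102 and 539. DESeq2 called 1151 higher and 1095 lower in AG221 against vehicle and 957 and 770 in combined treatment against WT. No paired analysis was possible because the groups share no replicate numbers.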
